A study of Mus musculus with 2 samples.

Results

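The 9 genes described here encode enzymes of serine synthesis and members of the response to the transcription factor ATF4: Phgdh, Psat1, Psph, Shmt2, Asns, Atf4, Ddit3, Trib3 and Chac1. They were taken by symbol from the 31053 genes listed for the control library, and all 9 were found. The study measured RNA in single epithelial cells sorted by flow cytometry from mouse lungs at embryonic day 15, in 1 library of control genotype and 1 library with knockouts of LEF/TCF transcription factors. The alleles, the driver of recombination, the sort markers and the number of embryos are not given in the sources used here. Every value below comes from the control library, and the knockout library's expression was not analysed here. The genes were chosen for their levels and co-variation in these same cells, so their values are a description and no test is given.

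The control library held 53789893 unique molecular identifiers (UMIs, each a captured RNA molecule) over 3568 barcodes. A filter on detected genes (1000 or more) and on mitochondrial UMIs (10% or less) left 3457 cells with 53639813 UMIs, a median of 12826 per cell. Of the control barcodes, 29 also occurred among the 5342 of the knockout library. With a single library there is no replicate spread, and each range in brackets is a 95% interval of counting error only. Levels are UMIs per 1000000 UMIs of a class of cells (CPM). Molecules were read at the 3′ end and levels are not divided by transcript length, so they are compared between cells and not between genes.

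Serine is made from a glycolytic intermediate by consecutive enzymes: PHGDH oxidises 3-phosphoglycerate, PSAT1 transfers an amino group to the product, and PSPH removes the phosphate. SHMT2 then splits serine in mitochondria into glycine and a carbon unit carried by folate, which feeds nucleotide synthesis. ATF4 is made mainly by increased translation of its mRNA when the initiation factor eIF2 is phosphorylated, for example on amino acid shortage or stress in the endoplasmic reticulum (ER). Its known targets include serine synthesis enzymes, asparagine synthetase (Asns), the pro-apoptotic factor Ddit3 (CHOP), the pseudokinase Trib3 and the glutathione-degrading enzyme Chac1. In the embryonic lung, Sox9 marks the growing distal tips and Sox2 the airways, while Sftpa1 and Ager mark the alveolar type 2 and type 1 lineages.

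ATF4 is known to bind composite C/EBP-ATF elements, so letters of that kind were looked for in RefSeq promoter windows (build GRCm38.p6), which reach from 250 bases before to 50 bases after a transcription start. The patterns TGATGNAA and TGNTGCAA, with N any base, were searched on both strands, and some sites fit both. These patterns were chosen after the windows were seen. The count for the 9 genes is therefore not read against the share of all windows. Of 32851 windows of all genes, 3.97% held the first, 3.22% the second and 6.20% either. All 9 genes had a window and Psat1 had 2, and 4 of these 10 windows held either pattern, those of Asns, Psat1, Trib3 and Chac1. The 30 bases around each match are shown to let the sites be compared. Capitals mark the match, and each sequence runs 5′ to 3′ on the gene's strand.
Asns, minus strand, chr6:7693214-7693243: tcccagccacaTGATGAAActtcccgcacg
Psat1, minus strand, chr19:15925177-15925206: acgcgggtggcTGGTGCAAtcccctgctct
Trib3 before the start, minus strand, chr2:152344075-152344104: cgggtcacagaTGGTGCAAtcccgggccgc
Trib3 after the start, minus strand, chr2:152344028-152344057: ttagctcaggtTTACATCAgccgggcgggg
Chac1, plus strand, chr2:119351038-119351067: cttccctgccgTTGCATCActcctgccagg
The match began 23 bases before the start in Asns, 136 in Psat1, 33 in the first Trib3 site and 193 in Chac1. The Psat1 site and the first Trib3 site carry the same 8 letters on the gene's strand. The Asns site lies inside an exon of GENCODE M21.

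The upstream parts of the first Psat1 window and of the Phgdh window are shown because these enzymes act in sequence. This Psat1 window held a match and that of Phgdh did not. The Psat1 window lies inside the GENCODE M21 span of the gene given below, so it is upstream of a RefSeq start within that span.
Psat1, minus strand, chr19:15925060-15925309: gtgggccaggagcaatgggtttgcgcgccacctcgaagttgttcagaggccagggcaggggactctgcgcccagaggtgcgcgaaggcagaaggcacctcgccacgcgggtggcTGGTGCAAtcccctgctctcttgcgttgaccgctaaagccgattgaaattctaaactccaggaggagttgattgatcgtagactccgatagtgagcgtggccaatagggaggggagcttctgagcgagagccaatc
Phgdh, minus strand, chr3:98339991-98340219: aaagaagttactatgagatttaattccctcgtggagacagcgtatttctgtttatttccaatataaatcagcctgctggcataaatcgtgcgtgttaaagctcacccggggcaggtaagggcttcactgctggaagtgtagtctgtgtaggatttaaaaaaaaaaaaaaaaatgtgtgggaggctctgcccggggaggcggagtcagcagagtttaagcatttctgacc
These patterns were not in the windows of Phgdh, Psph, Shmt2, Atf4 and Ddit3, nor in the second window of Psat1. Each match is one of letters, and no binding data were used here.

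In GENCODE M21 (GRCm38, the assembly also called mm10, which the submitters' processing notes name) all 9 are protein-coding genes. Psat1 spans chromosome 19 from 15904678 to 15947337, Phgdh chromosome 3 from 98313170 to 98339990, Psph chromosome 5 from 129765558 to 129787449 and Asns chromosome 6 from 7675169 to 7693254, all on the minus strand. Shmt2 lies on chromosome 10 from 127517123 to 127522444 (minus strand) and Ddit3 on the same chromosome from 127290774 to 127296288 (plus strand). Atf4 spans chromosome 15 from 80255184 to 80257541 (plus strand). Trib3 and Chac1 lie on chromosome 2, from 152337422 to 152344032 (minus strand) and from 119351229 to 119354381 (plus strand). Ddit3 overlaps Mars on the opposite strand, with 549 UMIs, and a gene model on its own strand with 0 UMIs. Shmt2 overlaps Ndufa4l2 on the opposite strand, with 16 UMIs. Whether counting used strand is not given in the sources used here, so the Ddit3 count is uncertain on this ground.

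Cells with at least 1 UMI of a marker were called positive, which gave 836 Sftpa1-positive, 1525 Ager-positive, 2172 Sox9-positive and 697 Sox2-positive cells. These classes overlap: 285 cells had Sox9 and Sox2, at a median of 24650 UMIs. The main comparison therefore set 1887 cells with Sox9 and no Sox2 UMI (Sox9-only) against 412 with Sox2 and no Sox9 UMI (Sox2-only), at median depths of 14149 and 9824.5 UMIs. Other markers followed these names. Sftpc, a distal surfactant gene, was at 1727 against 113 CPM (here and below, Sox9-only against Sox2-only), and Scgb3a2, an airway secretory gene, at 5.47 against 353 CPM. The 5 pan-epithelial markers summed to 1711 and 1943 CPM, the 5 mesenchymal ones to 3.003 and 20.98 CPM, the 4 endothelial ones to 0.854 and 1.23 CPM and the 4 immune ones to 0.727 and 0.823 CPM. Ratios were recomputed without cells holding 3 or more UMIs of mesenchymal, endothelial or immune markers. The Sox9-only to Sox2-only ratio was then 3.20 for Psat1, 2.47 for Asns, 1.67 for Phgdh and 0.675 for Ddit3. Beyond these values the part of such markers in the results was not tested.

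Together the 9 genes made up 690.4 CPM (681 to 699.6) of Sox9-only cells and 387 CPM (369 to 405) of Sox2-only cells. Psat1, Phgdh and Asns were higher in Sox9-only cells, Trib3 was found in them and not in Sox2-only cells, Ddit3 was lower, and the other 4 genes were close or too sparse to compare. The Ddit3 gap rested on 48 UMIs in Sox2-only cells. Psat1, the aminotransferase, had 8423 UMIs in Sox9-only cells, 266 CPM (261 to 272), and 404 UMIs in Sox2-only cells, 83.1 CPM (75.2 to 91.6). The Psat1 ratio was 3.20 (2.90 to 3.55). Phgdh, the first enzyme of the pathway, stood at 215 CPM (210.0 to 220.3) in Sox9-only cells against 128 CPM (118 to 139) in Sox2-only cells, with a ratio of 1.68 (1.55 to 1.83). Its gap was smaller than that of Psat1. Psat1 made up 55.3% (54.5 to 56.1) of the UMIs of these 2 genes in Sox9-only cells and 39.3% (36.3 to 42.4) in Sox2-only cells. Asns, which makes asparagine from aspartate, stood at 45.6 CPM (43.3 to 48.0) in Sox9-only cells against 18.3 CPM (14.7 to 22.5) in Sox2-only cells, with a ratio of 2.49 (2.01 to 3.12).

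The last enzyme of serine synthesis did not follow the first ones. Psph stood at 28.8 CPM (26.9 to 30.7) in Sox9-only cells against 27.6 CPM (23.1 to 32.6) in Sox2-only cells, with a ratio of 1.04 (0.870 to 1.26). Shmt2, the mitochondrial enzyme that uses serine, stood at 22.6 CPM (20.9 to 24.3) against 20.4 CPM (16.5 to 24.8), with a ratio of 1.11 (0.897 to 1.38) that became 0.815 in cells of at most 14000 UMIs. For both genes a difference between the classes was not detectable at this depth.

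Atf4 mRNA stood at 103 CPM (99.9 to 107) in Sox9-only cells against 98.5 CPM (89.9 to 108) in Sox2-only cells, with a ratio of 1.05 (0.953 to 1.16), so no difference was detectable. The effectors downstream of ATF4 were sparse. Ddit3 stood at 6.80 CPM (5.92 to 7.77) against 9.87 CPM (7.28 to 13.1), with a ratio of 0.689 (0.502 to 0.962), lower in Sox9-only cells. At 5000 UMIs per cell a Ddit3 UMI was present in 3.85% (3.02 to 4.82) and 5.45% (3.41 to 8.22), with overlapping intervals. Trib3 had 63 UMIs and Chac1 21 in all 3457 cells. Sox9-only cells held 44 Trib3 UMIs (1.39 CPM) and Sox2-only cells 0, so no ratio can be given. The lower limit of its exact interval was 1.76, and 0.843 in cells with no Mki67 or Top2a UMI. At 5000 UMIs per cell, Trib3 was present in 0.748% (0.410 to 1.252) of Sox9-only cells and in 0 of 385 Sox2-only cells, whose upper limit of 0.954% lies inside the first interval, so a difference was not detectable at that depth. All 12 Trib3 UMIs of Sox2-positive cells lay in cells that also had Sox9. Chac1 had 14 and 4 UMIs, a ratio of 0.538 (0.169 to 2.24), an interval too wide to give a direction.

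Over all 11142 genes with 50 UMIs or more in the 2 classes together, 7.31% were at least 1.5-fold higher in Sox9-only cells, 17.3% at least 1.5-fold lower and 24.6% either, with a median log2 ratio of -0.13. Of the 9 genes, 7 reached 50 UMIs. Psat1, Asns and Phgdh were past 1.5-fold on the higher side and 0 on the lower side, where Ddit3 was nearest to the limit. It was past the limit under 3 alternatives. Its ratio was 0.628 with at least 2 UMIs of the marker and 0.656 by the mean of per-cell CPM. In cells with a Mki67 or Top2a UMI it was 0.605. Some other settings gave a smaller Ddit3 gap. The ratio was 0.892 with cells thinned to 5000 UMIs before classes were set. It was 0.769 in cells of at most 14000 UMIs and 0.735 (0.396 to 1.42) in cells with no Mki67 or Top2a UMI. The median log2 ratio of the 7 was 0.15. The genes were chosen on these cells, so nothing is read from that count.

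**Figure D1:**
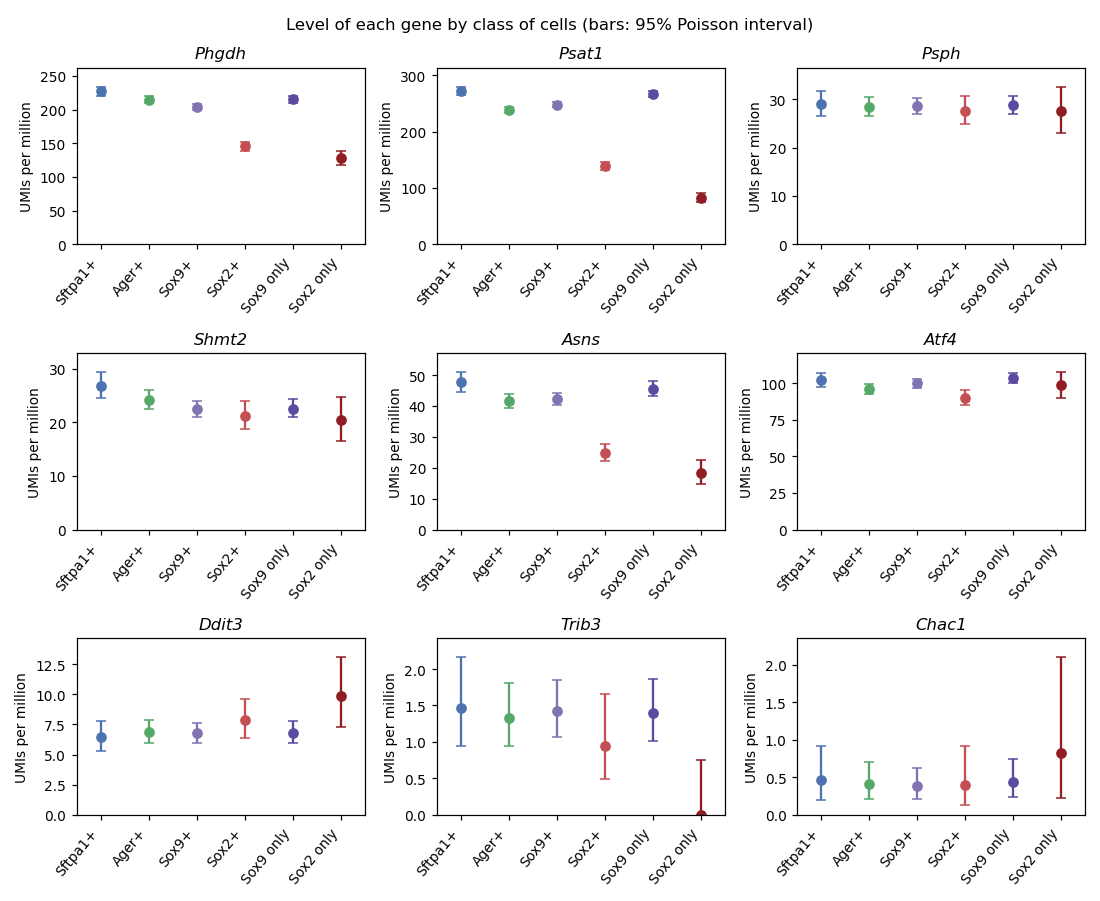
Level of each of the 9 genes (vertical axis, UMIs per 1000000 UMIs) by class of cells in the control library; points are summed UMIs over the class total and bars are 95% Poisson intervals. Psat1 is at 266 CPM in Sox9-only and 83.1 CPM in Sox2-only cells, and Psph at 28.8 and 27.6 CPM.

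Among the 4 positive classes, which share cells, Psat1 stood at 272 CPM (264 to 280.0) in Sftpa1-positive, 248 CPM (243 to 253) in Sox9-positive, 239 CPM (233 to 244) in Ager-positive and 139 CPM (132 to 145) in Sox2-positive cells. Phgdh stood at 227 CPM (219.8 to 234) in Sftpa1-positive, 215 CPM (209 to 219.9) in Ager-positive, 203 CPM (199 to 208) in Sox9-positive and 146 CPM (139 to 152) in Sox2-positive cells. Sox2-positive cells were the lowest for both enzymes, and their intervals did not reach those of the other classes. Asns, the asparagine enzyme, stood at 47.7 CPM (44.5 to 51.1) in Sftpa1-positive, 42.3 CPM (40.3 to 44.4) in Sox9-positive, 41.6 CPM (39.3 to 44.0) in Ager-positive and 24.8 CPM (22.2 to 27.7) in Sox2-positive cells. The intervals of Sox9- and Ager-positive cells overlapped for Psat1 and Asns, and those of Sftpa1- and Ager-positive cells for Phgdh. Median depths were 16179.5, 15565, 14919.5 and 14055 UMIs in Sftpa1-, Ager-, Sox9- and Sox2-positive cells. The part of depth in the levels of these classes was not tested.

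The other genes varied less. In Sftpa1-, Ager-, Sox9- and Sox2-positive cells in turn, Psph stood at 29.0, 28.4, 28.5, 27.6 CPM, with all 4 intervals overlapping. Shmt2 stood at 26.9, 24.2, 22.4, 21.2 CPM in the same order, and the intervals of the last 3 overlapped. Atf4 stood at 102, 95.8, 99.7, 90.1 CPM, and the interval of Sox2-positive cells lay below those of Sftpa1- and Sox9-positive cells. Ddit3, by contrast, had its highest level in Sox2-positive cells, at 6.45, 6.88, 6.77, 7.88 CPM, with overlapping intervals. Trib3 stood at 1.47, 1.32, 1.42, 0.946 CPM and Chac1 at 0.469, 0.407, 0.380, 0.394 CPM, also with overlapping intervals.

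To compare shares of cells, each cell was reduced at random to 5000 UMIs, leaving out 16 Sox9-only and 27 Sox2-only cells below that depth. A Psat1 UMI was then present in 69.8% (67.7 to 71.9) of Sox9-only and 32.2% (27.6 to 37.1) of Sox2-only cells, and in 90.4% and 50.7% before thinning. An Asns UMI was present in 17.4% (15.7 to 19.2) and 7.53% (5.10 to 10.6), and in 41.8% and 17.96% before thinning. For Atf4 the shares were 39.4% (37.2 to 41.7) and 37.1% (32.3 to 42.2), and 76.8% and 62.9% before thinning. At 5000 UMIs per cell the intervals of the 2 classes did not overlap for Psat1 and Asns, and did for Atf4. The classes were set before thinning, so their cells still differed in original depth. The part of that depth in these shares was not tested. The 62 cells with 3 or more UMIs of mesenchymal, endothelial or immune markers had a Psat1 UMI in 32.1% (20.3 to 46.0) at 5000 UMIs, with a median unthinned depth of 8965.5 UMIs. Of these cells 22.6% also had a Sox2 and 19.4% a Sox9 UMI, so they are no class that lacks epithelial RNA, and a background share from free RNA could not be read.

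**Figure D2:**
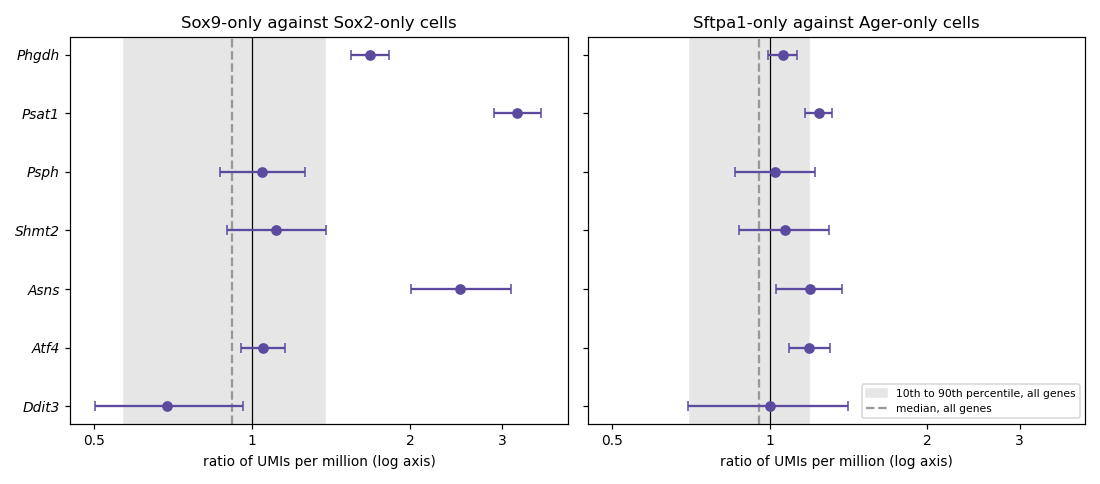
Ratio of levels (log axis) of the 7 genes with at least 50 UMIs, for Sox9-only against Sox2-only and Sftpa1-only against Ager-only cells; bars are exact 95% intervals of counting error and the band and dashed line give the 10th to 90th percentile and the median of all genes. Psat1 (3.20), Asns (2.49) and Phgdh (1.68) are highest in the first comparison, and none reaches 1.5 in the second.

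Depth moved with these levels. Within Sox9-only cells, Phgdh stood at 142, 169, 236 CPM in cells under 8000, of 8000 to under 14000, and of 14000 or more UMIs. Asns stood at 17.0, 34.0, 51.3 CPM and Psat1 at 199.7, 227, 284 CPM in the same bands, while Atf4 stood at 99.9, 112, 100.2 CPM. In Sox2-only cells the bands gave 86.5, 129, 141 CPM of Phgdh, 49.98, 82.6, 94.3 CPM of Psat1 and 10.8, 18.9, 20.3 CPM of Asns. Psat1 and Phgdh were higher in Sox9-only cells in each band, with intervals that did not overlap. For Asns the band under 8000 UMIs rested on 15 and 8 UMIs, with overlapping intervals (9.53 to 28.1) and (4.67 to 21.3), and a difference was not detectable there. In cells of at most 14000 UMIs the Phgdh ratio was 1.43, under 1.5-fold, and the Asns ratio 1.95.

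Cells were also split by Mki67 and Top2a, a pair of proliferation genes. Where neither was detected before thinning, 516 Sox9-only and 227 Sox2-only cells remained, and 8.25% of all genes were at least 1.5-fold higher, 17.4% lower and 25.6% either. The ratios were 3.88 (3.23 to 4.70) for Psat1, 2.75 (1.95 to 3.98) for Asns and 1.69 (1.48 to 1.93) for Phgdh, so the same 3 genes were past 1.5-fold. This split did not even out the cell cycle: 9 of 10 other cell-cycle genes with enough UMIs were at least 1.5-fold higher in these Sox9-only cells, and the 12 of the list summed to 846 against 425 CPM. Within Sox9-only cells, 1363 cells with either proliferation gene before thinning were then compared with 508 without, with levels taken at 5000 UMIs. The median unthinned depths of these cells were 15557 and 11301.5 UMIs, and the part of depth in the ratios was not tested. Psat1 stood at 279 against 217 CPM, a ratio of 1.29 (1.17 to 1.42), Atf4 at 112 against 88.6 CPM, a ratio of 1.26 (1.08 to 1.47), and Shmt2 at 23.0 against 15.7 CPM, a ratio of 1.46 (1.03 to 2.13). Phgdh and Asns had ratios of 1.05 (0.949 to 1.17) and 0.922 (0.739 to 1.16). Of the 7 genes only Ddit3 was past 1.5-fold, at 1.65 (0.914 to 3.19), where 8.82% of genes were higher, 1.84% lower and 10.7% either.

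Levels were also followed along the number of marker UMIs at 5000 UMIs per cell. Psat1 stood at 183 CPM (175 to 192) in 2044 cells with no Sox9 UMI, 242 CPM (227 to 258) in 805 cells with 1 and 271 CPM (251 to 292) in 516 cells with 2 or more. Along Sox2 it stood at 225 CPM (218 to 233) in 2985 cells, 106 CPM (89.2 to 126) in 258 cells and 80.3 CPM (59.4 to 106) in 122 cells. The Psat1 level was thus higher in cells with a Sox9 UMI and lower in cells with a Sox2 UMI than in cells without. Along both markers the intervals of 1 and of 2 or more UMIs overlapped. Asns stood at 31.8, 33.8, 38.0 CPM along Sox9, with overlapping intervals, and at 35.4, 14.7, 18.03 CPM along Sox2. Phgdh stood at 174, 189.6, 187 CPM along Sox9, also with overlapping intervals, and at 187, 125, 105 CPM along Sox2.

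**Figure D3:**
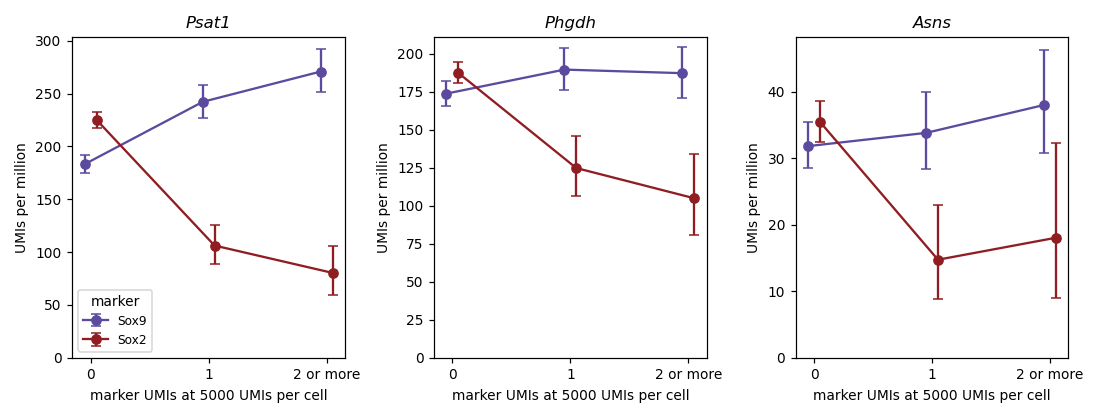
Levels of Psat1, Phgdh and Asns (vertical axes, UMIs per 1000000 UMIs) in cells grouped by their number of marker UMIs after thinning to 5000 UMIs; bars are 95% Poisson intervals. Psat1 is at 183, 242, 271 CPM along Sox9 and 225, 106, 80.3 CPM along Sox2.

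For the alveolar directions, 388 cells with Sftpa1 and no Ager UMI were compared with 1077 with Ager and no Sftpa1 UMI. None of the 7 genes with enough UMIs was past 1.5-fold, where 2.43% of 10504 genes were higher, 7.53% lower and 9.96% either. Psat1 stood at 271 against 218 CPM, a ratio of 1.24 (1.17 to 1.31), and Atf4 at 114 against 96.1 CPM, a ratio of 1.19 (1.09 to 1.30). Asns stood at 43.6 against 36.6 CPM, a ratio of 1.19 (1.03 to 1.38) that turned to 0.988 once cells above 14000 UMIs were left out. Ratios for Phgdh, Psph, Shmt2 and Ddit3 were 1.06 (0.995 to 1.13), 1.03 (0.858 to 1.22), 1.07 (0.873 to 1.30) and 1.001 (0.699 to 1.41). Sox2 itself stood at 7.33 against 25.5 CPM, and its part in these ratios was not tested. Within Sox9-only cells, 645 with a Sftpa1 UMI before thinning were compared with 1226 without, with levels taken at 5000 UMIs. Their median unthinned depths were 16274 and 13324 UMIs. Within Sox9-only cells Shmt2 also rose with depth, at 12.5, 17.1 and 25.1 CPM in the depth bands given above. The part of depth in the ratios that follow was not tested. Shmt2 stood at 29.5 against 16.6 CPM, a ratio of 1.77 (1.32 to 2.36), and Asns at 54.6 against 35.9 CPM, a ratio of 1.52 (1.24 to 1.86). These 2 of the 7 were past 1.5-fold, where 2.09% of genes were higher, 2.47% lower and 4.55% either. Phgdh and Psat1 had ratios of 1.24 (1.13 to 1.37) and 1.14 (1.05 to 1.24). With Sftpa1 counted after thinning, over all cells, Asns stood at 31.2 CPM (28.4 to 34.1) in 2966 cells with no Sftpa1 UMI, 41.8 CPM (32.0 to 53.5) in 297 with 1 and 68.6 CPM (47.8 to 95.4) in 102 with 2 or more. Shmt2 stood at 19.0 CPM (16.9 to 21.4), 29.0 CPM (20.96 to 39.0) and 31.4 CPM (17.9 to 50.9) in the same cells, and all 3 intervals overlapped. For Asns the intervals of 0 and of 2 or more UMIs did not overlap.

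Co-variation from cell to cell was weak. In 3365 cells at 5000 UMIs, Pearson's r of log counts over the 36 pairs of the 9 genes had a median of 0.00442 and ran from -0.0235 to 0.1496, with 6 pairs above 0.05. The highest were Asns with Phgdh (0.1496), Phgdh with Psat1 (0.143) and Phgdh with Shmt2 (0.0962). Asns and Phgdh were found together in 328 cells, against 254 from the product of their shares. Their r was 0.164 within Sox9-only and -0.0246 within Sox2-only cells. Atf4 had r between -0.0235 and 0.0324 with the other 8 genes. All pairs share 1 library and sparse counts, so values this near 0 are no finding.

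Summing genes gave a coarser view. Cells were ordered by the UMIs of the other 8 genes and cut into 5 equal groups of 673 cells, which are ranges of a score and not cell types. Asns stood at 19.0 CPM (14.6 to 24.3) in the lowest group, then 24.4, 30.6 and 38.3 CPM, and 53.8 CPM (46.2 to 62.2) in the highest, a ratio of 2.83 (2.12 to 3.82). Phgdh stood at 144 CPM in the lowest and 237 CPM in the highest group, a ratio of 1.65 (1.47 to 1.85), and Shmt2 at 16.0 and 27.6 CPM, a ratio of 1.72 (1.22 to 2.46). These 3 of the 7 genes were past 1.5-fold, where, between extreme groups ordered by all 9, 7.34% of 7715 other genes were higher, 6.87% lower and 14.2% either. Psat1 had a ratio of 1.42 (1.28 to 1.58), Atf4 1.06 (0.910 to 1.23), Psph 0.914 (0.686 to 1.22) and Ddit3 0.964 (0.547 to 1.70).

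Asns was the steadiest of the 3. It was past 1.5-fold in 12 of 13 alternative settings, Shmt2 in 8 and Phgdh in 5. Another random thinning alone took Phgdh to 1.40, Shmt2 to 1.38 and Psat1 to 1.52. Asns and Psat1 were then the genes past the limit. Leaving out the 10 cells with the highest share of UMIs from the 9 genes took Phgdh to 1.47 and Shmt2 to 1.41. It took Ddit3 from 0.964 to 0.595, so that Asns and Ddit3 were the genes past the limit. Among Sox2-only cells the Asns ratio was 1, that of Psat1 0.944, that of Phgdh 1.11 and that of Shmt2 3. This last ratio is among the 8 settings of Shmt2. Of the genes with enough UMIs, 0 were past 1.5-fold in Sox2-only cells, so Shmt2 was not counted there. The groups also differed in makeup. From the lowest to the highest group by all 9 genes, cells with a Sox2 UMI at 5000 UMIs went from 19.0% to 3.27% and those with Sox9 from 30.8% to 45.5%. The median mitochondrial share went from 2.99% to 2.31% and the median unthinned depth from 10527 to 15311 UMIs. Immune markers summed to 190.2 CPM in the lowest and 1.19 CPM in the highest group, nearly all from Pf4, and cells with markers of other types numbered 20 and 2. Without the cells with markers of other types the ratios were 2.60 for Asns, 1.51 for Shmt2 and 1.49 for Phgdh. Within Sox9-only cells they were 2.31, 1.73 and 1.67 in the same order. Beyond these values the part of the makeup in the ratios was not tested.

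**Figure D4:**
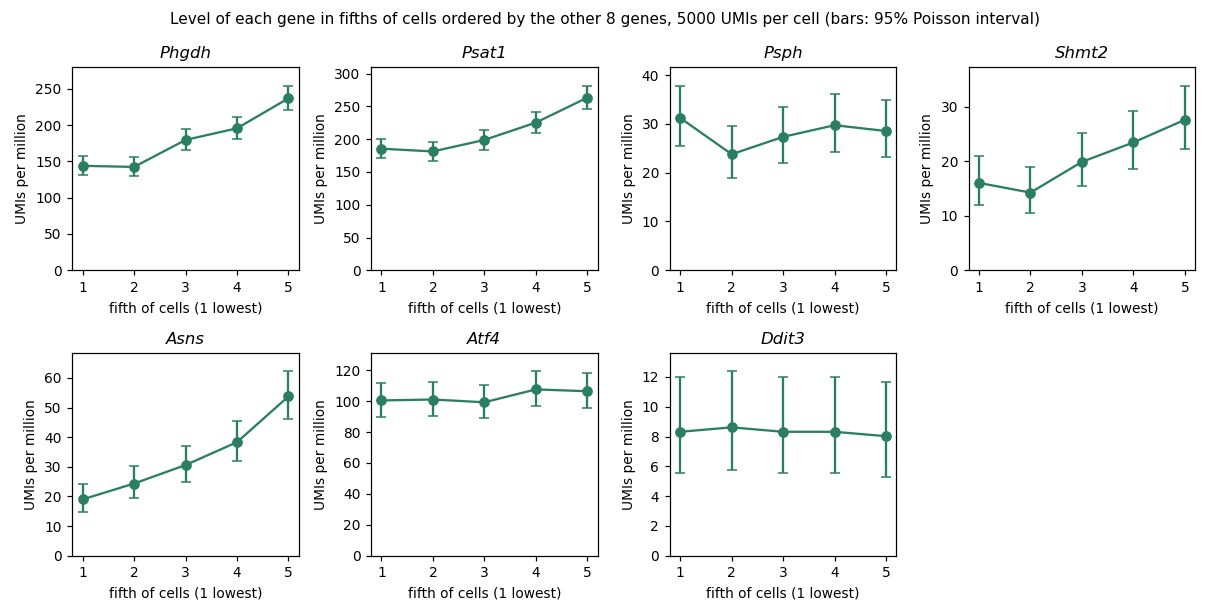
Levels of the 7 genes with enough UMIs (vertical axes, UMIs per 1000000 UMIs) in 5 equal groups of cells ordered by the UMIs of the other 8 genes (1 lowest, 5 highest), at 5000 UMIs per cell; bars are 95% Poisson intervals. Asns goes from 19.0 to 53.8 CPM, while Atf4 lies between 99.3 and 108 CPM.

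Other genes of these pathways were counted in Sox9-only against Sox2-only cells. Of 20 genes of serine, glycine and folate carbon metabolism, 14 had enough UMIs, and 4 were at least 1.5-fold higher and 3 lower, with a median log2 ratio of 0.34. The higher ones were the serine transporter Slc1a4 (2.26 (1.45 to 3.71)), the mitochondrial folate enzyme Mthfd2 (55.5 against 27.1 CPM, 2.05 (1.71 to 2.46)), the cytosolic Shmt1 (29.0 against 17.7 CPM, 1.64 (1.31 to 2.07)) and Cth (1.54 (0.775 to 3.47)), whose interval held 1. The lower ones were Srr, which makes D-serine (0.357), Sfxn3 (0.488) and the glutamine carrier Slc1a5 (0.504).

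Of 26 other known ATF4 targets, 19 had enough UMIs, and 0 were at least 1.5-fold higher and 3 lower, where 7.31% and 17.3% of all genes were, with a median log2 ratio of -0.08. The lower ones were the mTOR inhibitor Ddit4 (29.4 against 83.5 CPM, 0.352 (0.313 to 0.396)), Cebpb (41.7 against 115 CPM, 0.361 (0.327 to 0.399)) and Sesn2 (0.408 (0.269 to 0.634)). The highest was the proline enzyme Aldh18a1, at 1.46 (1.07 to 2.05). Of 12 tRNA synthetase genes 0 were higher and 1, Sars, was lower (0.650 (0.583 to 0.725)), with a median log2 ratio of 0.01. Of 11 genes for eIF2 kinases, eIF2, eIF2B and their regulator Impact, 0 were past 1.5-fold in either direction. Nearest was Eif2ak4, which encodes the amino acid sensor GCN2, at 0.671 (0.515 to 0.884).

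ER chaperones and their partners were higher in Sox9-only cells in 9 of 16 and lower in 1, with a median log2 ratio of 0.62. Hspa5, which encodes BiP, stood at 337 against 206 CPM (1.63 (1.53 to 1.74)), Manf at 363 against 195 CPM (1.87 (1.75 to 1.996)) and Hyou1 at 7.84 against 3.91 CPM (2.01 (1.26 to 3.39)). The lower one was Herpud1 (11.9 against 18.3 CPM, 0.651 (0.516 to 0.830)). Of 5 mitochondrial chaperone and protease genes 0 were past 1.5-fold, and Hspe1 came nearest at 1.49 (1.45 to 1.54). Immediate early and heat shock genes, known to respond to tissue dissociation, were lower in Sox9-only cells in 7 of 11 and higher in 1, with a median log2 ratio of -0.76. Fos stood at 342 against 655 CPM and Hspa1a at 16.2 against 75.9 CPM, and the part of dissociation in the ratios of the 9 genes was not tested. Of 12 cell-cycle genes Rrm2 (2.20 (1.99 to 2.44)) and Tyms (1.62 (1.48 to 1.79)), which serve nucleotide synthesis, were higher and 0 lower.

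**Figure D5:**
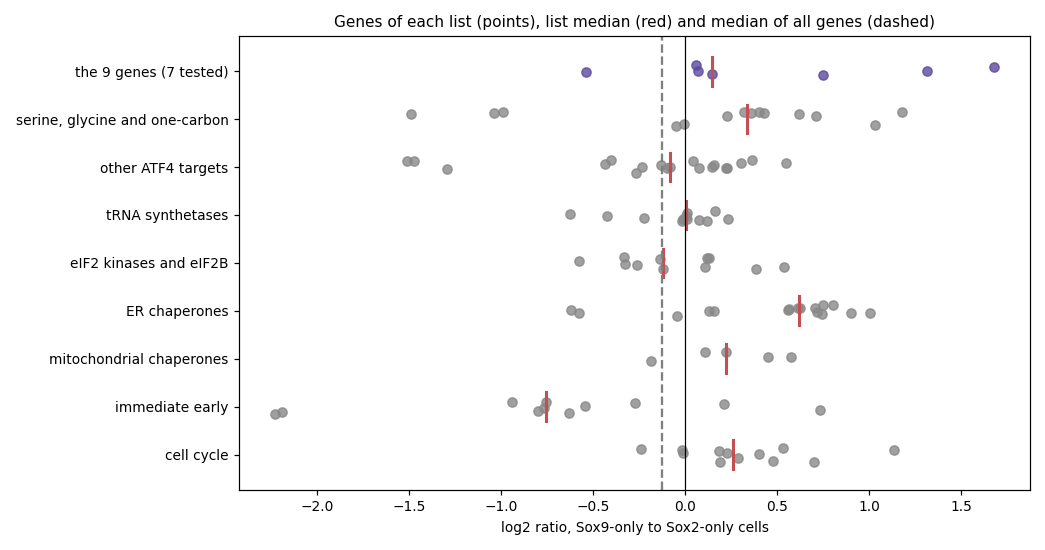
log2 ratio of levels in Sox9-only to Sox2-only cells (horizontal axis) for each gene with at least 50 UMIs in each list (rows); marks show list medians and the dashed line the median of all genes, -0.13. ER chaperones have a median of 0.62, other ATF4 targets -0.08 and immediate early genes -0.76.

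Between the extreme groups of cells ordered by all 9 genes, the same lists were counted. ER chaperones were higher in 7 of 15 in the highest group, with Hspa5 at 434 against 204 CPM (2.12 (1.94 to 2.33)) and a median log2 ratio of 0.53, against 0.04 over all genes. The tRNA synthetases were higher in 5 of 12, led by Cars (2.52 (1.59 to 4.09)) and Gars (2.03 (1.60 to 2.59)), with a median of 0.42. Of 15 other ATF4 targets with enough UMIs, 3 enzymes of amino acid synthesis were higher, Aldh18a1 (2.24 (1.37 to 3.75)), Got1 (2.06 (1.33 to 3.25)) and Pycr1 (1.70 (1.04 to 2.85)), and 2 were lower, Ddit4 (0.511 (0.395 to 0.657)) and Cebpb (0.541 (0.437 to 0.666)), with a median of -0.09. Of 10 serine and folate genes Shmt1 was higher (2.16 (1.57 to 2.996)) and Slc1a5 lower (0.649 (0.446 to 0.939)). Of 12 cell-cycle genes 6 were higher and 0 lower, with Cdk1 at 1.90 (1.65 to 2.20). The makeup of these groups, given above, applies to these counts too.

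The genes whose counts went most closely with the summed UMIs of the 9 were ranked among 3509 others with at least 500 UMIs at equal depth, over 3365 cells. Their r had a median of 0.0151 and a 95th percentile of 0.111. The highest were the tubulin Tuba1b (0.311), Dlk1 (0.287), the nucleolar Npm1 (0.252), Clu (0.248), Hmgb1 (0.246), Bex4 (0.246), Pdia6 (0.240), Gapdh (0.234), Hsp90b1 (0.231) and Hspa5 (0.227). Ran, Tspan8, H2afz, Atp5b, Hmgb2, Hspd1, Ptma, Eif4a1, Pdia3 and Tubb4b followed, down to 0.199. Some of these were themselves distal: Dlk1 stood at 571 CPM in Sox9-only and 34.1 CPM in Sox2-only cells, and Clu at 201 and 21.6 CPM. Others were nearly even, such as Atp5b at 749 and 713 CPM. Within Sox9-only cells some r were higher than over all cells, such as that of Atp5b (0.268 against 0.213). Others were lower there, such as those of Dlk1 (0.171 against 0.287), H2afz (0.109 against 0.221) and Ptma (0.0516 against 0.209). The lowest r were those of Ccnd2 (-0.245), Malat1 (-0.237), H19 (-0.233), Rps19 (-0.226) and mt-Co3 (-0.222). Ccnd2, a D-type cyclin, stood at 182 and 923 CPM in the same classes. These values share 1 library and are a description across cells.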

How the data were processed

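RNA of sorted lung epithelial cells was captured with the 10x Chromium 3′ kit, per the labels' protocols. The authors deposited raw counts of UMIs for each gene in each barcode. Cell Ranger, Seurat and mm10 are named in the submitters' processing notes, and the matrix was written by software version 3.0.1, per the file headers. The annotation, the strand setting and the rule for calling barcodes are not given in the sources used here. The knockout library entered only through its barcode and gene lists.

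The filter on genes and mitochondrial UMIs removed 111 barcodes. No doublet caller was run, and values were recomputed without deep cells and without cells that had at least 4 Xist UMIs and a Y-linked UMI. UMIs were summed over a class and divided by its total. Intervals are exact Poisson, Clopper-Pearson or conditional binomial intervals at 95%. Cells of 1 library are not replicates, so no test was made. For shares and co-variation, cells were thinned to 5000 UMIs (seed 0), leaving out 92 shallower cells. Named genes are the 9 members, the 20 of highest and 5 of lowest r, the gene of highest r for each member (for Phgdh the next one is also given, chosen after its value was seen), and up to 5 per list with the largest ratios. The scripts were tested on simulated data. Python 3.11.15, numpy 2.4.6, scipy 1.17.1, pandas 2.3.3 and matplotlib 3.10.9 were used. The members and lists were chosen with earlier results of these data known, and the motif patterns after the windows were seen.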

Additional observations from a re-analysis of the deposited data

How the results depend on the processing

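No paired analysis was possible because there is 1 library per group. The summed level of the 9 genes, 615 CPM, was 533 CPM in cells of at most 14000 UMIs, 625 CPM with at least 2000 genes and at most 5% mitochondrial UMIs, and 624 CPM without Xist-high cells with a Y-linked UMI. Between Sox9-only and Sox2-only cells 3 genes were past 1.5-fold, and 5 with a minimum of 10 UMIs per gene, which admits Trib3 (higher) and Chac1 (lower). It was 4, with Ddit3 added on the lower side, with at least 2 UMIs of the marker, by mean per-cell CPM and in cells with a Mki67 or Top2a UMI, and 2, without Phgdh, in cells of at most 14000 UMIs. Between Sftpa1-only and Ager-only cells the count was 0, and 1 (Asns) when positive cells needed at least 2 UMIs of the marker. Between extreme groups ordered by the other 8 genes it was 3. It was 1 (Asns) in cells of at most 14000 UMIs, without Xist-high cells with a Y-linked UMI and when thinned to 3000 UMIs. It was 0 in Sox2-only cells, where Shmt2 had a ratio of 3. Only genes with enough UMIs were counted, and Shmt2 was not counted there. Over all genes, 24.6%, 9.96% and 14.2% were past 1.5-fold either way in these comparisons, the last with groups ordered by all 9. No such share was computed for the other settings of these counts, so their changes are not read. The cause of these changes was not tested. The Asns ratio of Sftpa1-only to Ager-only cells reversed to 0.988 in cells of at most 14000 UMIs, and the Psat1 ratio of extreme groups to 0.944 in Sox2-only cells. Over 11 alternatives the Sox9-only to Sox2-only ratio ran from 2.69 to 3.88 for Psat1, 1.95 to 2.75 for Asns and 1.43 to 1.81 for Phgdh, past 1.5-fold in 11, 11 and 10 of them. The alternatives by Mki67 and Top2a were added after seeing the data. Depth was too low to compare Chac1 between classes.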

Other observations

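The 285 cells with UMIs of both Sox factors had levels between those of the exclusive classes for Psat1 (174 CPM (164 to 183)), Phgdh (156 CPM (148 to 165)) and Asns (28.9 CPM (25.3 to 32.9)). Their Atf4 level was 84.9 CPM (78.6 to 91.6). It was 103 CPM (99.9 to 107) in Sox9-only and 98.5 CPM (89.9 to 108) in Sox2-only cells. The interval of the cells with both factors overlapped that of Sox2-only cells and lay below that of Sox9-only cells. Cells with both factors had a median depth of 24650 UMIs, and the part of depth in their levels was not tested. The 873 cells with neither factor had 189.5 CPM of Psat1 and 197 CPM of Phgdh at a median depth of 9697 UMIs.

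The genes differed in their spread over cells. At 5000 UMIs per cell the Fano factor (variance over mean, 1 for counting noise alone) was 1.36 for Phgdh and 1.16 for Asns, above the 90th percentile of genes of like mean (1.31 and 1.1003). For Ddit3 it was 1.07, just above its percentile of 1.07. It was 1.29 for Psat1, under that percentile (1.35), 0.978 for Psph, 1.02 for Shmt2 and 1.09 for Atf4. The gene of highest r was the ATP synthase gene Atp5b for Phgdh (0.322), followed by the glycolytic Pkm (0.298), Dlk1 for Psat1 (0.307) and Clu for Asns (0.170). For Atf4 it was Cenpa, at 0.0715, a weak value in sparse counts.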
